A study of Homo sapiens with 16 samples.

Results

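PARK2 encodes parkin, a ubiquitin ligase of the RING-between-RING (RBR) type. On damaged mitochondria the kinase PINK1 accumulates on the outer membrane, phosphorylates ubiquitin and parkin, and so turns on the ligase. Parkin then coats outer membrane proteins with ubiquitin, receptor proteins such as optineurin (OPTN) and NDP52 (CALCOCO2) bind the coat, and the organelle is taken up by autophagy, a process called mitophagy. Loss-of-function changes in PARK2 and in PINK1 cause early-onset recessive Parkinson disease. The comparison described here is that of HAP1 cells carrying a PARK2 deletion with their own PARK2+/+ control, chosen by the genotype label: 4 knockout and 4 control libraries, 8 of the 16 libraries of the series.

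The study compared control HAP1 cells with cells lacking either the manganese exporter SLC30A10 or PARK2. HAP1 is an adherent near-haploid human line derived from a chronic myeloid leukaemia. All cells were grown in IMDM with fetal bovine serum, penicillin and streptomycin and with no treatment named, and polyadenylated RNA was sequenced as paired reads on a DNBseq instrument. The other 8 libraries are an SLC30A10_delta knockout (n = 4) and a second control set of genotype SLC30A10+/+ (n = 4). This second set carries the same cell line identifier as the PARK2+/+ set. The 4 PARK2_delta libraries share 1 identifier of their own. The labels give neither the number of clones nor the position of the deletion, so the effect of the genotype and that of the particular line cannot be told apart. They also do not say whether the 4 libraries of a group came from separate cultures, and p-values then measure the spread between these libraries, which may be technical.

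Library totals ran from 16106089 to 16648151 counts over the 8 libraries, and no pair of libraries agreed within sampling noise. The first principal component held 58.6% of the variance and separated the genotypes. Most blood cell markers were near the floor: of 15 haematopoietic markers, 10 had at most 3 counts in every control library, 6 of them none. PTPRC (CD45) had 2 counts in the 8 libraries together. The summed level was 5.39 to 7.17 CPM (counts scaled to library size) in control and 3.81 to 5.92 CPM in knockout. Most of that sum was the globin gene HBA1, with 82, 59, 84 and 75 counts in control and 67, 50, 39 and 56 in knockout. HBA1 was called lower, a call lost on leaving out any of 5 single libraries. Among the 22 tested markers of 5 cell types, 6 were higher and 7 lower in the knockout. The summed level of 10 neuronal markers was 239 to 249 CPM in control and 177 to 201 CPM in knockout. Most of that sum is TUBB3, which fell from 220.7 to 231.8 CPM down to 144 to 178 CPM, while 3 of the 6 tested neuronal markers (MAP2, NEFL and ELAVL3) rose. The summed level of 12 epithelial markers was 68.3 to 71.4 CPM against 54.3 to 58.3 CPM. That of 12 fibroblast markers overlapped, at 772 to 963 CPM against 802 to 1010 CPM, with PDGFRA lower (-0.71, log2) and THY1, VIM and CDH2 higher (2.33, 0.26 and 0.22). The part of these differences in the results below was not tested.

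PARK2 itself was lowered but its RNA was still detected in every knockout library. The control libraries held 21, 18, 14 and 23 PARK2 counts (1.28, 1.09, 0.844 and 1.40 CPM), and the knockout libraries 5, 4, 2 and 9 (0.312, 0.245, 0.121 and 0.545 CPM). The groups did not overlap, and the knockout values also lay below all 4 libraries of the second control set, which held 10, 16, 13 and 17 counts. In the SLC30A10 knockout the counts were 16, 20, 25 and 15. The knockout mean was 26.5% of the control mean, from 20 counts against 76 in all. The difference was -1.71 on the log2(CPM + 0.1) scale (two-sided exact permutation test, p = 0.0286, the smallest that 4 against 4 libraries allow). In the model fitted across all genes (edgeR's quasi-likelihood test with Benjamini-Hochberg adjustment, which gives every adjusted p below) the log2 fold change was -1.89 ± 0.34 (SE; adjusted p = 0.000178). The counts sum over the gene and do not show which exons were read, and in bulk RNA fewer cells with a transcript and less transcript per cell cannot be told apart.

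**Figure D1:**
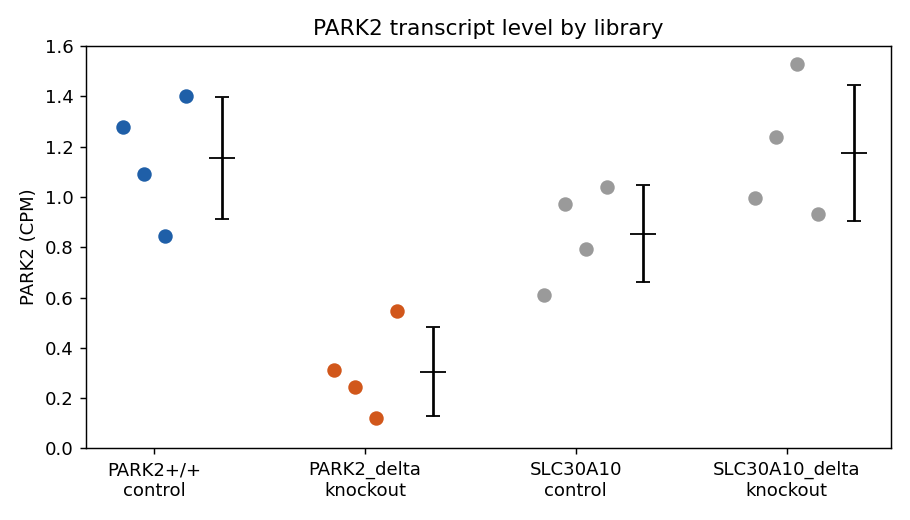
PARK2 level in CPM in each of the 16 libraries (points), with the mean and SD of each group beside them (bars). The 4 PARK2_delta libraries sit between 0.121 and 0.545 CPM, below every library of the other 3 groups.

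PARK2 lies on chromosome 6 (GRCh38, 161347417 to 162727766), with AGPAT4 and MAP3K4 on its lower-coordinate side and QKI on the other side. The neighbours showed little difference. MAP3K4 had a log2 fold change of 0.04 ± 0.07 (adjusted p = 0.755) and QKI one of -0.12 ± 0.04 (adjusted p = 0.0554). AGPAT4, an acyltransferase of phospholipid synthesis, was 24.5 to 26.0 CPM in control and 26.9 to 29.6 CPM in knockout (log2 fold change 0.19 ± 0.06, adjusted p = 0.0425), a call that was lost when any single library other than knockout library 1 was left out.

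Of 15569 tested genes, 2132 (13.7%) passed an adjusted p of 0.05. Of these 1038 were higher in the knockout (6.67% of those tested) and 1094 lower (7.03%). Most differences were small: 1467 of the 2132 were under 1.5-fold, and the median size of a called change was 0.348 on the log2 scale. A change of at least 2-fold was seen for 149 genes upward and 209 downward, and of at least 4-fold for 37 upward and 113 downward, so the lower side held more of the large changes. The values of the 2 groups did not overlap for 2537 tested genes (16.3%). Against all 8 control libraries of the series, 1135 of the 2132 called genes (53.2%) had every knockout value above or every one below the controls, as did 290 of the 358 genes changed at least 2-fold.

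**Figure D2:**
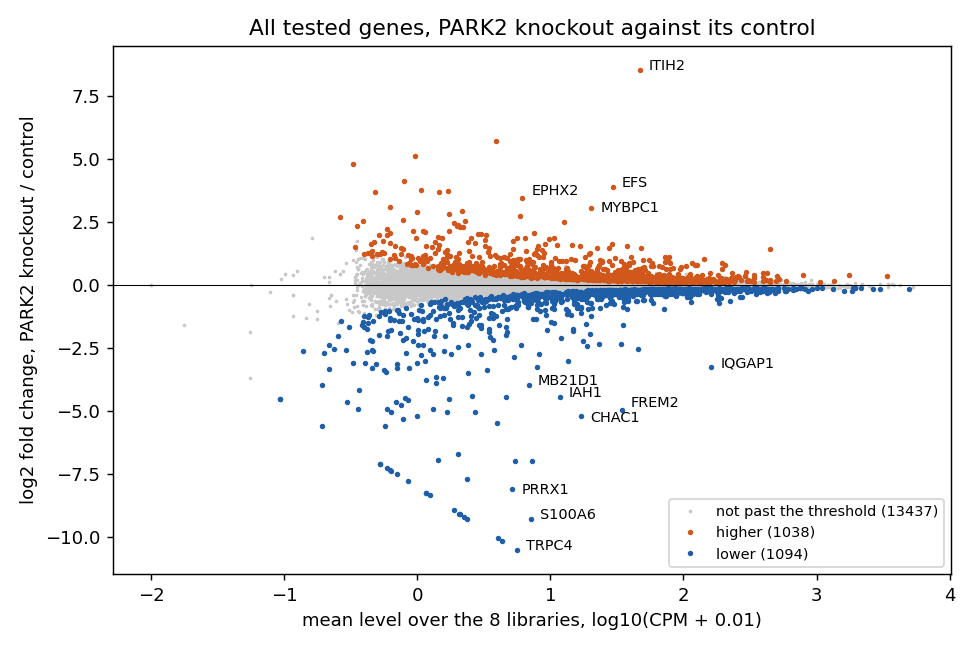
Each tested gene by its mean level over the 8 libraries (x axis, log10 CPM) and its log2 fold change between PARK2 knockout and control (y axis), with genes past an adjusted p of 0.05 in colour (1038 higher, 1094 lower). Large falls, such as TRPC4, S100A6 and PRRX1, outnumber rises of the same size, and ITIH2 is the highest point.

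Among genes of at least 5 CPM, 5 of the 12 largest falls went to the detection floor of 3 counts. TRPC4, a calcium-permeable cation channel, was 10.5, 11.8, 12.0 and 10.6 CPM in control and had no count in any knockout library, at least 61.2-fold lower. S100A6 (calcyclin), a small calcium-binding protein, was 16.9, 14.9, 13.9 and 11.9 CPM in control (948 counts in all), and 1 count was found in the 4 knockout libraries together, a ratio of 941 with an exact 95% interval of 168 to 37190 that covers counting error only. PRRX1, a homeobox factor of mesenchyme, was 8.67 to 12.2 CPM against at most 0.0606 CPM (678 counts against 2, a ratio of 336 with an interval of 92.8 to 2783). In each of these genes every knockout library lay far below every control. PTPRN2, a transmembrane protein of dense-core vesicles, was 10.4 to 11.46 CPM against at most 0.125 CPM (706 counts against 5, a ratio of 140.1 with an interval of 59.8 to 432.8). WBP5 (TCEAL9), of the transcription elongation factor A-like family, was 12.6 to 15.98 CPM against at most 0.187 CPM (956 counts against 7, a ratio of 135.5 with an interval of 65.5 to 338). In both genes, too, every knockout library lay far below every control.

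The windows around the annotated starts of TRPC4 and S100A6 are shown because these genes head the falls, TRPC4 shared with the SLC30A10 knockout and S100A6 not. They are RefSeq sequences of 300 bases (GRCh38.p14, 250 before and 50 after the start, minus strand for both), TRPC4 at chr13:37869723-37870022 and S100A6 at chr1:153535942-153536241, with CG dinucleotides in capitals.
TRPC4: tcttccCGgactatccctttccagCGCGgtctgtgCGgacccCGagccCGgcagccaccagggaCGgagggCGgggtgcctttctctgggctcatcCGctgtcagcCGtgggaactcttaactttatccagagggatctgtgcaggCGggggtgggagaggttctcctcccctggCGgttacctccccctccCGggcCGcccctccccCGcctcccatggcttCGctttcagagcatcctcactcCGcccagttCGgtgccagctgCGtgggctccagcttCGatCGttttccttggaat
S100A6: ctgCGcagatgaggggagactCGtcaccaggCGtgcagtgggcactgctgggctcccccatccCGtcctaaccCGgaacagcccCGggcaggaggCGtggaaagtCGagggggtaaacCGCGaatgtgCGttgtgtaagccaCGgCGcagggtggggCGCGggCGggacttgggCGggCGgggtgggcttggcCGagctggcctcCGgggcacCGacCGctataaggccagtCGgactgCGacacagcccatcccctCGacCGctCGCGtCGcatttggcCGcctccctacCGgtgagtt
The TRPC4 window held 21 CG dinucleotides and the S100A6 window 31. The median over 11131 tested genes with such a window was 26, and 82.1% held at least 15. Of 24 genes lost by the rule given below, 13 had a window, with a median of 11 CG dinucleotides, and 6 of the 13 held at least 15. DNA methylation was not measured.

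The other large falls left RNA that could be counted. IQGAP1, a scaffold linking actin to signalling, had the best-measured change: it was 300.4, 292.4, 290.8 and 292.1 CPM in control and 30.2, 31.3, 31.7 and 29.9 CPM in knockout. Its log2 fold change was -3.26 ± 0.04 (adjusted p = 2.45e-28), and neither group varied by more than a small part of that difference. In the SLC30A10 knockout IQGAP1 differed from its own control by -0.11 (log2), and the 2 knockout effects differed (adjusted p = 6.06e-25). FREM2, an extracellular matrix protein of basement membranes, was 68.1, 63.3, 67.9 and 66.6 CPM in control and 1.93, 1.90, 2.42 and 2.24 CPM in knockout (log2 fold change -4.96 ± 0.10, adjusted p = 5.42e-24). MB21D1 (cGAS), the cytosolic DNA sensor that makes cyclic GMP-AMP, was 11.6, 13.5, 13.1 and 13.4 CPM in control and 0.811, 0.859, 0.666 and 0.908 CPM in knockout (-3.98 ± 0.15, adjusted p = 2.03e-17). In all 3 genes the groups were far apart.

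IAH1, an esterase, was 19.3 to 25.5 CPM in control and 0.727 to 1.72 CPM in knockout (log2 fold change -4.45 ± 0.16). ZNF518B, a zinc finger protein, was 13.98 to 14.9 CPM against 1.23 to 1.82 CPM (-3.24 ± 0.12), and HOOK1, an adaptor of microtubule motors, was 22.5 to 26.8 CPM against 2.58 to 4.12 CPM (-3.01 ± 0.11). The largest fall of a stress gene was that of CHAC1, an enzyme that degrades glutathione and a target of the factor ATF4. It was 37.5, 43.8, 36.3 and 14.8 CPM in control and 1.19, 0.675, 0.727 and 0.969 CPM in knockout (-5.21 ± 0.29, adjusted p = 1.33e-13). Its control values were themselves uneven, with control library 4 lowest. They also differed from the second control set, where the mean was 4.95 CPM (log2 difference between control sets 2.74), so that the size of the fall depends on the control set: it was -4.41 with the sets pooled.

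The 12 largest rises among genes of at least 5 CPM were led by ITIH2, which encodes a heavy chain of the inter-alpha-trypsin inhibitor family that binds hyaluronan. ITIH2 was 0.184, 0.182, 0.362 and 0.243 CPM in control and 98.0, 92.8, 93.0 and 92.0 CPM in knockout (log2 fold change 8.55 ± 0.23, adjusted p = 1.42e-20). The 3 nearest tested genes on its higher-coordinate side on chromosome 10 were higher as well, KIN by 1.57, ATP5C1 by 1.45 and TAF3 by 1.48 (log2), each with control and knockout values that did not overlap. SFMBT2, on the other side, was not (0.04, adjusted p = 0.714). EFS, an adaptor of SRC-family kinase signalling, was 3.61, 3.52, 3.74 and 3.77 CPM in control and 46.1, 52.9, 63.7 and 58.1 CPM in knockout (3.91 ± 0.11). EPHX2, soluble epoxide hydrolase, was 0.788 to 1.21 CPM against 9.87 to 14.03 CPM (3.46 ± 0.16), and MYBPC1, a myosin-binding protein of slow muscle, was 3.70 to 4.59 CPM against 34.3 to 39.3 CPM (3.05 ± 0.10). These 4 genes were raised in every knockout library, above all 8 controls.

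In EFS and EPHX2 the SLC30A10 knockout moved the opposite way, with log2 fold changes of -2.25 and -1.19 against its own control. In 6 of the 12 large rises both knockouts were higher than their controls, among them FAM127C (2.74 in the PARK2 and 3.33 in the SLC30A10 knockout, log2), TMEM132E (2.52 and 3.30), SLC19A3, a thiamine transporter (2.08 and 2.34), and the tight junction protein CLDN1 (1.88 and 1.65). A difference between the 2 effects passed the test for TMEM132E (adjusted p = 0.00346) and did not for FAM127C (0.0714), SLC19A3 (0.368) or CLDN1 (0.307). The other 2 were GSTM2 (0.61 in the SLC30A10 knockout, log2, with a difference between the effects at adjusted p = 1.91e-07) and LXN (1.44, with a difference at 0.243). FAM127C has close copies beside it, FAM127A and FAM127B, with which it can share reads. FGF19, a secreted hormone-like growth factor, was 3.65 to 4.79 CPM in control and 13.5 to 16.8 CPM in knockout (1.86 ± 0.11), and fell in the SLC30A10 knockout by 1.62 on the log2 scale. GSTM2, a glutathione transferase, was 3.98 to 5.04 CPM against 16.6 to 17.4 CPM (1.86 ± 0.09), with the caution that it shares sequence with other GSTM genes. The others were the carboxypeptidase inhibitor LXN (1.76 ± 0.13) and the pseudogene DPY19L2P1 (1.88 ± 0.15), whose reads may be shared with its parent gene.

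**Figure D3:**
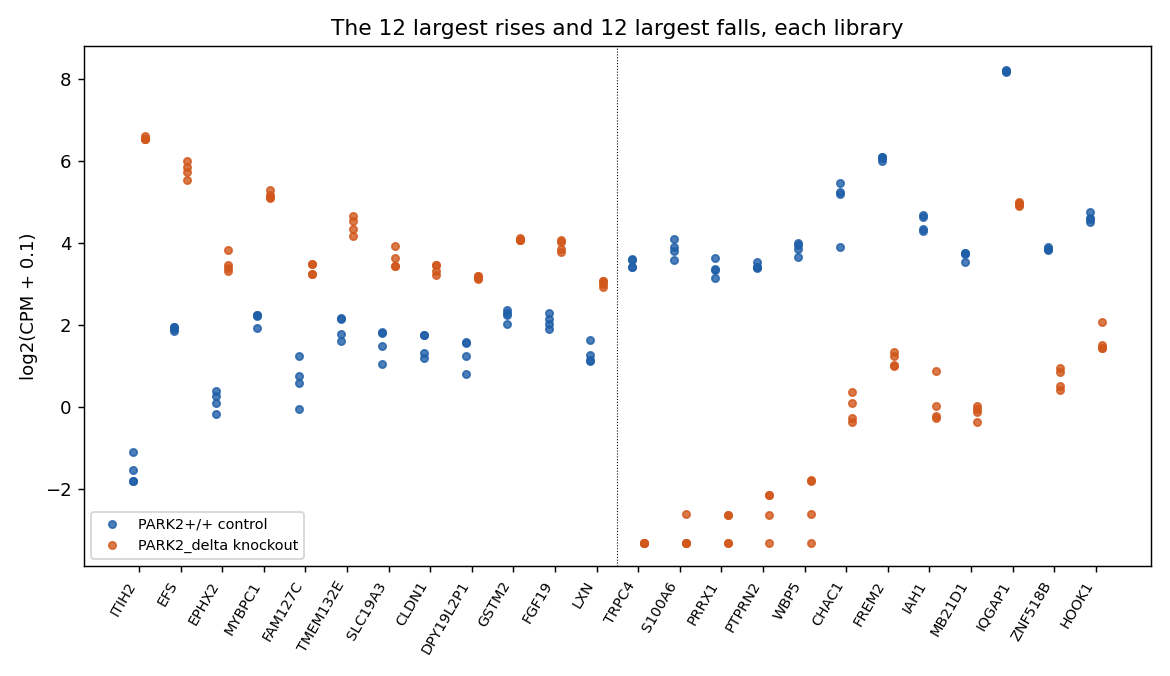
Level in each control and knockout library, as log2(CPM + 0.1), of the 12 largest rises (left) and 12 largest falls (right) among genes of at least 5 CPM. The 2 groups do not overlap in any of the 24 genes, which the rule for naming them required, and 5 genes on the right reach the detection floor in the knockout.

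A wider set of lost genes was taken after their values were seen: at most 3 counts in every knockout library and at least 20 in every control. It held 24 genes, and no gene met the reverse rule. Of the 24, 23 also had at least 20 counts in every library of the second control set, and 9 were at the floor in the SLC30A10 knockout as well. The 9 included TRPC4, PRRX1, WBP5, the fucosyltransferase FUT9 and the GABA receptor subunit GABRA5. Among those that stayed measurable in the SLC30A10 knockout were S100A6 (mean 14.1 CPM there), PTPRN2 (12.6 CPM), the Wnt receptor FZD10 (14.1 CPM), the bone morphogenetic protein BMP3 (10.6 CPM) and the interferon regulatory factor IRF8 (4.82 CPM). Neighbours fell together at several places, and at others the nearest tested genes were not called. FZD10 and its antisense transcript FZD10-AS1 were both lost (at least 20.3-fold and 24.2-fold lower); their annotated spans lie side by side and do not overlap. LBX1-AS1 was at least 44.1-fold lower beside the homeobox gene LBX1, which was at least 6.70-fold lower. Next to S100A6, in contrast, S100A11 stood at 0.15 (log2, adjusted p = 0.271) and S100A4 at -0.83 (adjusted p = 0.0757). Next to PRRX1, GORAB stood at 0.22 (adjusted p = 0.0685) and FMO4 at 0.08 (adjusted p = 0.867).

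Read by function, the shares of called genes differed widely between the gene lists examined. These lists were chosen with earlier results of these data known, so the order of their shares is a description only. Developmental transcription factors (33 of 66 tested members called), integrated stress response genes (18 of 36), synaptic genes (11 of 32), homeobox clusters (11 of 33), extracellular matrix genes (22 of 70) and axon guidance genes (18 of 60) held the highest shares among lists of at least 15 tested members, apart from the cell type markers (13 of 22). The proteasome (1 of 33), the nuclear-encoded respiratory chain (3 of 77), DNA replication and mitosis (4 of 71) and glycolysis with the hypoxia response (0 of 45) lay below the 13.7% of all tested genes. Near that share lay cytosolic ribosomal proteins (15.8%), RBR ligases with their partners (12.0%), apoptosis regulators (17.2%) and the interferon response (18.2%).

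**Figure D4:**
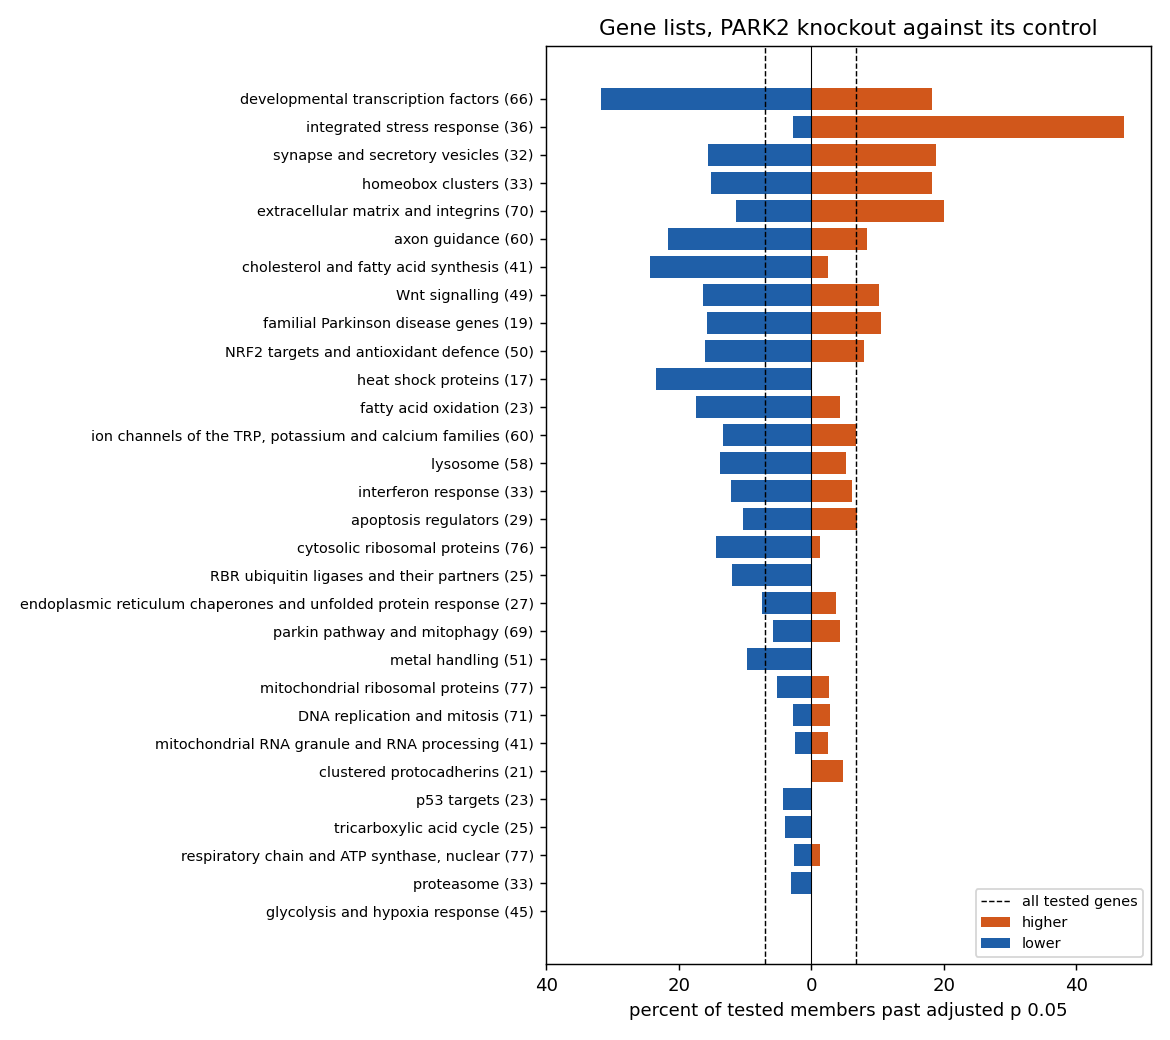
Share of each list's tested members (number in brackets) past an adjusted p of 0.05, higher to the right and lower to the left, with the shares over all tested genes as dashed lines (6.67% and 7.03%). The longest bars are those of the developmental transcription factors to the left and of the integrated stress response to the right, and the mitochondrial ribosome, respiratory chain and mitochondrial RNA lists stay within the dashed lines.

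In parkin's own pathway the share of called genes was near that of all tested genes. Of 69 tested genes of the pathway and of mitophagy, 3 were higher and 4 lower, PARK2 itself among the lower (10.1% called against 13.7% of all tested genes). The median log2 fold change was -0.0116 against -0.00244 over all tested genes. Without control library 4 or knockout library 2 the list had 4 calls in place of 7, and without knockout library 1 it had 9. The upstream kinase PINK1 was 13.3, 12.9, 11.6 and 13.1 CPM in control and 9.60, 9.57, 11.2 and 9.51 CPM in knockout, so the groups did not overlap although knockout library 3 came close (log2 fold change -0.35 ± 0.08, adjusted p = 0.00301). The receptor OPTN was 29.5 to 35.1 CPM against 25.2 to 27.2 CPM (-0.30 ± 0.06, adjusted p = 0.000779), a call lost when the control sets were pooled (adjusted p = 0.311). FUNDC1, a receptor anchored in the outer membrane, was 24.1 to 27.2 CPM against 20.2 to 23.4 CPM (-0.21 ± 0.06, adjusted p = 0.0163), a call lost without control library 4 or knockout library 2. CALCOCO2 was 0.21 ± 0.07 higher with overlapping groups (adjusted p = 0.0443), which held only with control library 1, knockout library 1 or knockout library 3 as the library left out. ATG12 and ATG4B, of the conjugation machinery of the autophagosome, were higher by 0.15 and 0.17 (log2). The ATG12 call was lost without control library 2 or 4 or knockout library 2 or 4, and the ATG4B call without control library 3 or knockout library 3.

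None of the 14 tested outer membrane targets of parkin passed (1 at an unadjusted p under 0.05, and DESeq2 called 0). MFN1 and MFN2, mitofusins that parkin tags with ubiquitin, had log2 fold changes of -0.07 (adjusted p = 0.443) and -0.06 (adjusted p = 0.364). The deubiquitinase USP30, which opposes parkin, stood at -0.03 (adjusted p = 0.808) and the receptor SQSTM1 (p62) at -0.14 (adjusted p = 0.14). Of 25 tested RBR ligases and ubiquitin-conjugating partners, 3 were lower: PARK2 itself, the ligase RNF217 and the conjugating enzyme UBE2D2. RNF217 was 12.4, 11.1, 11.9 and 10.6 CPM in control and 7.42, 8.40, 5.995 and 6.24 CPM in knockout (-0.71 ± 0.12, adjusted p = 5.5e-05), with no overlap. UBE2D2 changed by -0.16 ± 0.04 (adjusted p = 0.00748). In the proteasome PSMC6, a base subunit, was the single call (-0.15 ± 0.05, adjusted p = 0.045). DESeq2 called 0 of the 33, with 4 at an unadjusted p under 0.05, and the PSMC6 call was lost when any library other than knockout library 4 was left out.

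Among 19 tested genes of familial Parkinson disease, 2 rose and 3 fell (26.3% called against 13.7% of all tested genes). The falls include PARK2 itself, the deleted gene. VPS35, of the retromer that recycles membrane proteins from endosomes, was 242 to 247 CPM against 215 to 221 CPM (log2 fold change -0.17 ± 0.03, adjusted p = 0.0011), but -0.05 with the control sets pooled (adjusted p = 0.503). PLA2G6, a phospholipase, was 0.28 ± 0.09 higher with overlapping groups (adjusted p = 0.0417), a call that held only without control library 2, knockout library 1 or knockout library 4 among the single libraries. For PARK7 (DJ-1) and LRRK2 no difference was called (log2 fold changes -0.03 and 0.32, adjusted p = 0.716 and 0.491).

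In mitochondria the calls were few and concerned single genes. Of 41 tested genes of mitochondrial RNA processing, FASTKD2, an RNA-binding protein of mitochondrial RNA granules, was lower: 52.6, 53.2, 55.9 and 54.3 CPM in control and 38.8, 34.0, 34.2 and 31.3 CPM in knockout (log2 fold change -0.64 ± 0.06, adjusted p = 4.25e-09). FASTKD2 was far lower in the SLC30A10 knockout, by 8.40 (log2, fitted). PTCD2 was the only other call (0.19 ± 0.06, adjusted p = 0.0236), and it was lost without control library 2, control library 4 or knockout library 1 and with the control sets pooled (adjusted p = 0.105). Of 77 tested mitochondrial ribosomal proteins 2 rose and 4 fell, all in the large subunit. MRPL34 was 39.0, 41.1, 43.5 and 45.8 CPM in control and 71.8, 73.1, 71.7 and 68.9 CPM in knockout (0.75 ± 0.06, adjusted p = 4.45e-10). MRPL16 went from 118 to 129 CPM down to 85.4 to 90.9 CPM (-0.47 ± 0.04, adjusted p = 1.36e-09). In the small subunit DESeq2 also called 0 of 28, with 6 at an unadjusted p under 0.05.

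Of 77 tested nuclear genes of the respiratory chain and ATP synthase 3 were called, all in ATP synthase. ATP5C1, the gamma subunit and the neighbour of ITIH2, was 249, 222, 243 and 247 CPM in control and 708, 661, 616 and 637 CPM in knockout (log2 fold change 1.45 ± 0.05, adjusted p = 4.22e-19). The other 2 were small decreases of ATP5G3 (-0.15 ± 0.04) and ATP5H (-0.13 ± 0.04), the latter lost without control library 1, 3 or 4 or knockout library 2 or 4. Of 35 complex I genes 0 were called by either tool, with 2 at an unadjusted p under 0.05. The list's count was sensitive to single libraries: it was 8 without control library 2, 6 without knockout library 1 and 5 without knockout library 3. Its median log2 fold change was -0.0447.

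The integrated stress response is the programme in which the factor ATF4, translated when the initiation factor eIF2 is phosphorylated, switches on genes of amino acid supply and stress. Of its 36 tested genes 17 were higher and 1, CHAC1, was lower, with a median log2 fold change of 0.312. The raised genes included those of amino acid and one-carbon metabolism (ASNS, CTH, PSAT1, PHGDH, PSPH, SHMT2), of amino acid uptake (SLC7A11, SLC7A5, SLC3A2, SLC7A1) and of regulation (DDIT3, ATF3, CEBPB, SESN2). DESeq2 called 12 of these 18, without ADM2, ATF3, CEBPB, DDIT3, SESN2 and SLC7A1. ATF4 RNA was not called (0.20 ± 0.09, adjusted p = 0.128), nor was TRIB3 (0.63, adjusted p = 0.0582). ASNS, asparagine synthetase, was 162, 181, 141 and 106 CPM in control and 270, 272, 135 and 364 CPM in knockout (0.82 ± 0.17, adjusted p = 0.000818). SLC7A11, the cystine importer, was 97.2, 114, 85.8 and 60.9 CPM in control and 118, 170, 76.8 and 257 CPM in knockout (0.80 ± 0.21, adjusted p = 0.00869). In both genes the groups overlapped, with knockout library 3 within the controls and knockout library 4 highest. With both control sets pooled, SLC7A5 (adjusted p = 0.318), PHGDH (0.232), SLC3A2 (0.111), PSAT1 (0.0609) and PSPH (0.0545) were no longer called.

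That pattern ran through the list. Over its 25 tested targets other than CHAC1, knockout library 4 was the highest of the 8 libraries in 24 and control library 4 the lowest in 18. The median target, relative to the control mean, was 0.211, 0.471, -0.0544 and 0.792 (log2) in the knockout libraries and 0.0692, 0.211, -0.0256 and -0.221 in the controls. Without knockout library 4, 10 of the 18 calls were kept, SLC7A11 being among those lost, and without control library 4, 11 were kept, and leaving out both gave 2 higher (ASNS with an adjusted p of 0.0235 and SHMT2 with 0.0449) and 2 lower (CHAC1 and VLDLR), with a median log2 fold change of 0.0979. This last choice was made after the values were seen. CHAC1 was the only called gene of the list whose groups did not overlap. In the SLC30A10 knockout 2 genes of the list rose and 14 fell against its own control.

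**Figure D5:**
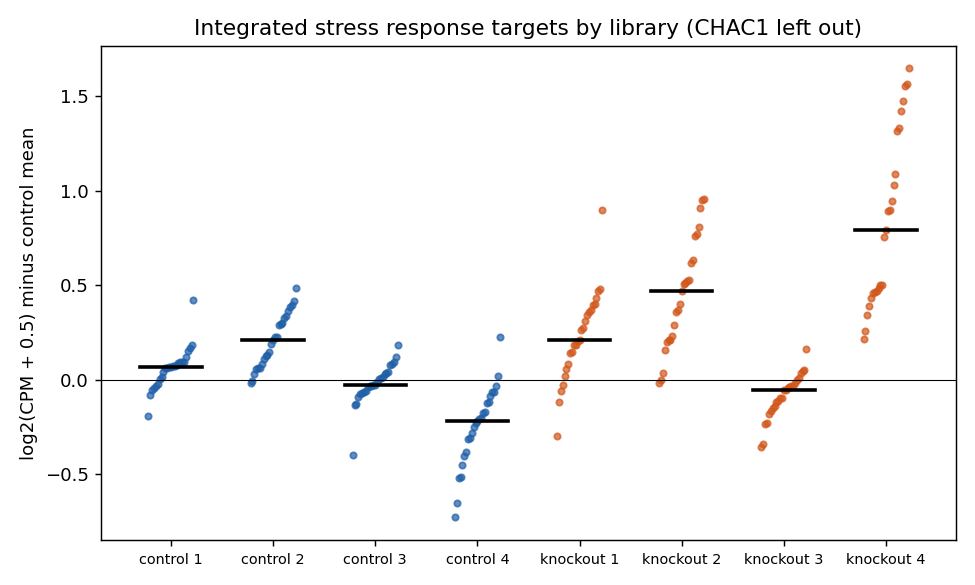
Each of the 25 tested stress response targets other than CHAC1 in each control and knockout library, as log2(CPM + 0.5) minus the control mean (points, sorted within a library), with the median of each library (bar). The medians of the knockout libraries run from -0.0544 in library 3 to 0.792 in library 4, and the controls from -0.221 to 0.211.

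The start windows of ASNS and CHAC1 are shown because the genes belong to the same programme and moved in opposite directions. The letters of the ATF4-type element searched were TGATGNAA, on either strand, and are in capitals. The windows are RefSeq sequences (GRCh38.p14), ASNS on the minus strand at chr7:97872359-97872658 and CHAC1 on the plus strand at chr15:40953221-40953520.
ASNS: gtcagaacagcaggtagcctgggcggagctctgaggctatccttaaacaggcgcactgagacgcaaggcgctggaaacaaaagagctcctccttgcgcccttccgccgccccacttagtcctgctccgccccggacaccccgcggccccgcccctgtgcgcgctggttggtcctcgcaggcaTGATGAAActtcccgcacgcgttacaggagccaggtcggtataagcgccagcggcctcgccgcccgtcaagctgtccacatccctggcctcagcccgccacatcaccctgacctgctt
CHAC1: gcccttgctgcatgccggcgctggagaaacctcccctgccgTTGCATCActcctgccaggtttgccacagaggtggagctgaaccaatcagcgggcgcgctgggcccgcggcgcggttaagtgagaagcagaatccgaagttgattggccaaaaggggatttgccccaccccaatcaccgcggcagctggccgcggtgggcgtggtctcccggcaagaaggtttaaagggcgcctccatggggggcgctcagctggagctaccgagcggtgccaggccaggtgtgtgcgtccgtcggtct
Each held 1 match. Of 22 tested targets with such a window 4 held a match (18.2%), as did 3 of the 12 that were higher, and 174 of 11131 tested genes (1.56%). A match describes the letters of the window only.

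Of 27 tested chaperones and unfolded protein response genes of the endoplasmic reticulum 1 rose and 2 fell (11.1% called against 13.7% of all tested genes). These were XBP1 (0.39 ± 0.13, adjusted p = 0.0403, lost without control library 1, 3 or 4 or knockout library 2 or 4), DNAJB9 (-0.36 ± 0.08) and PDIA3 (-0.18 ± 0.04). Leaving out knockout library 1 gave 5 calls in that list and leaving out knockout library 3 gave 7. Of 17 tested heat shock genes 4 fell (23.5% called against 13.7% of all tested genes). Among them was DNAJB1, from 91.9, 92.6, 96.5 and 110 CPM in control to 83.0, 75.2, 93.1 and 66.0 CPM in knockout (-0.30 ± 0.07, adjusted p = 0.00509). The heat shock groups overlapped in each of the 4 genes. The list had 1 call without control library 3, control library 4 or knockout library 2, and 2 without knockout library 4. Without both libraries numbered 4, a choice made after the values were seen, it had 0.

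Of 50 tested targets of NRF2 and antioxidant genes, 4 rose and 8 fell (24.0% called against 13.7% of all tested genes). NQO1, a quinone reductase, was 31.0, 25.3, 25.0 and 26.9 CPM in control and 57.5, 43.1, 38.8 and 40.3 CPM in knockout (0.73 ± 0.09, adjusted p = 1.7e-06). Against both control sets together its difference was 0.04 (adjusted p = 0.926), and its mean in the second control set was 60.5 CPM. The glutathione transferase GSTP1 fell from 489 to 586 CPM in control to 404 to 473 CPM in knockout (-0.32 ± 0.05, adjusted p = 4.45e-05). The ferritin chains FTL, at 323 to 333 CPM against 251 to 300.3 CPM (-0.29 ± 0.05, adjusted p = 3.71e-05), and FTH1, at 632 to 653 CPM against 522 to 566 CPM (-0.23 ± 0.04, adjusted p = 7.91e-05), fell together. Both have many processed pseudogenes that can share reads. In the metal handling list all 5 calls of 51 tested genes were decreases, a share of 9.8%, below the 13.7% of all tested genes. The metallothionein MT1E was 81.5 to 91.5 CPM against 63.1 to 74.6 CPM (-0.30 ± 0.08, adjusted p = 0.00774). Without control library 3, control library 4 or knockout library 2 that list had 3 calls.

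Cell death and growth genes changed singly. Of 29 tested apoptosis regulators 2 rose and 3 fell, and 3 were called without knockout library 2 or knockout library 4. BOK, a pore-forming member of the BCL2 family, was 15.2, 16.3, 14.2 and 17.3 CPM in control and 5.49, 5.34, 5.81 and 5.63 CPM in knockout (-1.498 ± 0.09, adjusted p = 6.67e-13). The anti-apoptotic BCL2 was 21.5 to 27.3 CPM against 33.0 to 42.7 CPM (0.54 ± 0.08, adjusted p = 7.77e-06). Of 23 tested p53 targets CCNG1 was the only call (-0.23 ± 0.05, adjusted p = 0.00174), with 2 calls in that list without control library 1, knockout library 1 or knockout library 3. Of 71 replication and mitosis genes 4 were called, and 2 without control library 1, control library 4 or knockout library 2. MYC, a growth-promoting transcription factor, was 1564, 1502, 1438 and 1471 CPM in control and 2138, 2161, 2029 and 1712 CPM in knockout (0.43 ± 0.07, adjusted p = 6.73e-05). All MYC values in the knockout exceeded all 8 controls.

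The share of called genes differed between the metabolic lists and is read beside the 13.7% of all tested genes. In glycolysis and the hypoxia response 0 of 45 tested genes were called by edgeR and by DESeq2, with 8 at an unadjusted p under 0.05, and leaving out control library 1 or knockout library 1 gave 4, knockout library 4 gave 3, and control library 2 or knockout library 3 gave 1. Of 41 genes of cholesterol and fatty acid synthesis 1 rose and 10 fell (26.8% called). An example is the elongase ELOVL6, from 135.5 to 153 CPM down to 109.9 to 123 CPM (-0.34 ± 0.05, adjusted p = 7e-06). Of 23 fatty acid oxidation genes 1 rose and 4 fell (21.7% called), with the dehydrogenase ACADL at 2.18 to 3.46 CPM in control and 1.10 to 1.496 CPM in knockout (-0.98 ± 0.20, adjusted p = 0.000761). The sole call of 25 tricarboxylic acid cycle genes was DLAT (-0.13 ± 0.04, adjusted p = 0.0324), lost without control library 3 or 4 or knockout library 1, 2 or 3.

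Of 58 tested lysosomal genes 3 rose and 8 fell, and 4 of the 8 were subunits or partners of the proton pump. Of these, ATP6AP2 was not called without control library 1, 3 or 4 or knockout library 1, 2 or 4, ATP6V0C without control library 2, 3 or 4 or knockout library 1, 2 or 4, and ATP6V0A1 without control library 3 or 4 or knockout library 1. CTSC, a peptidase that activates granule proteases, was the largest change: 49.7, 48.4, 46.6 and 49.2 CPM in control and 90.9, 82.1, 78.2 and 78.2 CPM in knockout (0.76 ± 0.06, adjusted p = 2.53e-11). The cholesterol carrier NPC2 was 56.8 to 67.5 CPM against 47.6 to 52.6 CPM (-0.29 ± 0.05, adjusted p = 0.000363). The lysosomal count was 6 without control library 3, 5 without control library 4 or knockout library 2, and 7 without knockout library 1. Of 76 cytosolic ribosomal protein genes 1 rose and 11 fell, a share of 15.8% near the 13.7% of all tested genes, with a median log2 fold change of -0.0446. The largest falls were those of RPL23A, from 308 to 338 CPM down to 219 to 238 CPM (-0.48 ± 0.04, adjusted p = 1.31e-10), and RPL41 (-0.43 ± 0.05, adjusted p = 5.67e-07). Both have pseudogenes that can share reads, and the list had 7 calls in place of 12 without control library 2 or knockout library 2.

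Transcription factors of embryonic patterning changed in both directions. Of 66 tested developmental transcription factors 12 rose and 21 fell (50% called against 13.7% of all tested genes). In 23 of the 33 every knockout value lay outside the 8 controls, as it did in 53.2% of all called genes. TAL1, a master regulator of blood and vessel development, was 73.3, 76.6, 79.1 and 82.6 CPM in control and 12.5, 12.9, 14.1 and 14.2 CPM in knockout (-2.54 ± 0.06, adjusted p = 1.54e-22). TWIST2, a factor of mesenchyme, was 1.69 to 2.24 CPM against 0.0605 to 0.429 CPM (-3.02 ± 0.29), and LIN28A, an RNA-binding protein of pluripotent cells, 1.99 to 3.61 CPM against at most 0.303 CPM (-3.89 ± 0.38). The blood factors RUNX1 and GATA3 also fell, by 0.95 and 0.91 on the log2 scale. On the raised side the kidney and midbrain factor PAX2 was 9.97, 12.2, 13.3 and 11 CPM in control and 25.9, 32.7, 38.9 and 33.9 CPM in knockout (1.5 ± 0.10, adjusted p = 6.57e-12). SOX2, a factor of stem and neural progenitor cells, was 2750 to 3244 CPM against 3460 to 4081 CPM (0.36 ± 0.07, adjusted p = 0.000709).

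In the homeobox clusters 6 of 33 tested genes rose and 5 fell (33.3% called against 13.7% of all tested genes). The groups did not overlap in 13 of the 33, the 11 called genes among them, against 16.3% of all tested genes. In the HOXD cluster the called genes were raised at either end and lowered between. HOXD8 rose from 12.3, 15.5, 13.8 and 12.6 CPM to 22.01, 21.3, 18.7 and 19.1 CPM (0.58 ± 0.09, adjusted p = 5.49e-05). HOXD9 fell by 2.18 on the log2 scale, HOXD10 went from 100 counts in the 4 controls to 2 in the 4 knockouts (a ratio of 49.6 with an exact 95% interval of 13.4 to 415.3) and HOXD11 was at least 12.7-fold lower, with no HOXD11 count in any knockout library against 1.94 to 2.94 CPM in control. HOXD13, at the far end, rose by 0.32 (log2). In the HOXC cluster HOXC8 was 16.8 to 20.1 CPM against 25.5 to 25.6 CPM (0.49 ± 0.07, adjusted p = 4.69e-06), while HOXC11, already at most 0.486 CPM in control, had no count in the knockout (at least 1.99-fold lower).

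Surface and matrix genes changed in both directions. Of 70 tested extracellular matrix and integrin genes 14 rose and 8 fell (31.4% called against 13.7% of all tested genes), and 7 of the 9 called collagens were raised. COL5A2 was 46.0, 42.1, 37.1 and 38.3 CPM in control and 99.5, 73.0, 63.2 and 67.9 CPM in knockout (0.89 ± 0.10, adjusted p = 5.31e-08), but 0.07 with the control sets pooled (adjusted p = 0.885). COL9A3, a cartilage collagen chain, was 10.8 to 12.5 CPM against 25.8 to 31.6 CPM (1.28 ± 0.09, adjusted p = 4.94e-12), and COL23A1, a transmembrane collagen, 1.82 to 2.19 CPM against 4.42 to 5.39 CPM (1.30 ± 0.17, adjusted p = 1.98e-06). The 2 lowered collagens were COL26A1 (-0.28 ± 0.05, adjusted p = 0.000294) and COL24A1, which went from 4.22 to 6.37 CPM down to 0.0613 to 0.242 CPM (-5.04 ± 0.27, adjusted p = 5.33e-14). The collagen receptor ITGA1 fell (-1.17 ± 0.20, adjusted p = 0.00015).

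Of 60 axon guidance genes 5 rose and 13 fell (30.0% called against 13.7% of all tested genes). The ephrin receptor EPHA7 was 9.06, 9.34, 8.38 and 8.51 CPM in control and 0.312, 0.245, 0.303 and 0.727 CPM in knockout (-4.44 ± 0.19, adjusted p = 1.78e-16). A second ephrin receptor, EPHB1, was 1.71 to 3.34 CPM against 0.491 to 0.727 CPM (-2.001 ± 0.23, adjusted p = 1.92e-07). The repellent ligand SLIT1 and the semaphorin SEMA3C rose, by 0.91 ± 0.17 and 1.92 ± 0.32 (log2). SEMA3C stood at 1.27 with the control sets pooled. Of 49 Wnt genes 5 rose and 8 fell (26.5% called against 13.7% of all tested genes), with 8 calls without knockout library 2. Beside the loss of FZD10, the receptor FZD8 rose (0.41 ± 0.11, adjusted p = 0.00881) and the secreted inhibitor DKK3 fell (-0.45 ± 0.09, adjusted p = 0.000488, and 0.37 with the control sets pooled). Among 11 Wnt ligands 0 were called by either tool, with 1 at an unadjusted p under 0.05.

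Of 32 synaptic and vesicle genes 6 rose and 5 fell (34.4% called against 13.7% of all tested genes), with 7 calls without control library 2 or knockout library 3. STXBP2, which guides vesicle fusion outside neurons, was 15.9, 15.3, 13.3 and 14.3 CPM in control and 4.12, 3.99, 4.12 and 4.96 CPM in knockout (-1.77 ± 0.10, adjusted p = 1.65e-13). SYT11, a synaptotagmin, was 3.27 to 4.10 CPM against 8.72 to 10.0 CPM (1.37 ± 0.10, adjusted p = 5.05e-11), and the adhesion protein NRXN3 2.33 to 3.46 CPM against 5.21 to 7.05 CPM (1.13 ± 0.13, adjusted p = 4.07e-07, and 0.63 on the log2 scale with the control sets pooled). Of 60 ion channel genes 4 rose and 8 fell, and the channels besides TRPC4 included the inward rectifier KCNJ2. It had at most 2 counts in a control library and 2.99, 1.84, 0.666 and 1.998 CPM in knockout (adjusted p = 6.95e-07). The potassium channels KCNQ5 and KCNN2 rose (1.11 ± 0.19 and 0.77 ± 0.12, log2) and KCNN3 fell (-0.89 ± 0.18).

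Of 33 tested interferon response genes 2 rose and 4 fell (18.2% called against 13.7% of all tested genes). Beside cGAS, IFITM1, a membrane protein that restricts virus entry, fell from 6.42, 5.94, 6.09 and 5.59 CPM to 1.19, 1.17, 1.45 and 1.51 CPM (-2.17 ± 0.17, adjusted p = 1.07e-10), while in the SLC30A10 knockout it rose by 2.62 (log2). HERC5 and IFIT1 rose, by 0.65 ± 0.09 and 0.52 ± 0.11 (log2), the former not called with the control sets pooled (adjusted p = 0.0769). Of 7 tested S100 genes S100A6 was the only call (3 calls without knockout library 1, 2 without control library 3 or knockout library 3). Of 21 tested clustered protocadherins PCDHB3 was the only call, at 2.30 to 3.12 CPM in control and 6.30 to 8.96 CPM in knockout (1.45 ± 0.16, adjusted p = 5.86e-08). Among the cell type markers the surface protein THY1 rose from 0.364 to 0.904 CPM up to 2.99 to 3.80 CPM (2.33 ± 0.21), the microtubule protein MAP2 from 11.7 to 14.8 CPM up to 16.8 to 29.6 CPM (0.76 ± 0.14), and the keratin KRT8 fell from 5.67 to 7.77 CPM down to 2.48 to 2.99 CPM (-1.35 ± 0.13).

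The knockout effects of PARK2 and SLC30A10, each against its own control, differed for 4873 of the 15569 tested genes (31.3%, adjusted p under 0.05). In FREM2, S100A6, PTPRN2 and ZNF518B the fall in the PARK2 knockout was not seen in the other: the SLC30A10 log2 fold changes were 0.15, 0.02, 0.31 and 0.66, and the difference passed in each (adjusted p = 3.93e-22, 6.75e-18, 6.67e-18 and 2.43e-17). BOK had opposite effects, -1.498 and 1.18 (log2; adjusted p of the difference 5.56e-16). For TRPC4, PRRX1 and WBP5, which were at the floor in both knockouts, a difference of effects was not called (adjusted p = 0.373, 0.147 and 0.932), and IAH1, lowered in both, was lowered further in the PARK2 knockout (-4.45 against -2.84, adjusted p = 1.49e-05).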

How the data were processed

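RNA from 16 HAP1 libraries was measured by sequencing. The authors deposited 1 table of raw read counts per gene for all libraries; HISAT2, featureCounts, DESeq2 and the human build hg38/GRCh38 are named in the submitters' processing notes, with versions and strand setting not given in the sources used here. Groups came from the genotype labels, and count columns were matched to samples by their titles.

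Genes were kept with edgeR 4.0.16 (filterByExpr, minimum count 10, total 15), scaled by TMM and fitted over all 16 libraries (R 4.3.3, limma 3.58.1) with 4 group means and edgeR's quasi-likelihood test, Benjamini-Hochberg adjusted over all tested genes, threshold 0.05. CPM values use TMM-scaled library sizes. The 8 library totals of about equal size put 3 counts, used as the floor for a fold against a group at 0, at 0.181 to 0.187 CPM. Intervals cover counting error only. On simulated data of 15569 genes for the PARK2 comparison, 84% of 50 genes changed 1.5-fold were recovered, with 10 false calls. The simulation gave every gene the same spread beyond sampling noise and changed 200 genes, fewer than were called here. Its recovery may therefore not hold for these data.

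The genes named are PARK2 and its neighbours, the 12 largest rises and 12 largest falls of at least 5 CPM without overlap, up to 4 called members of at least 1 CPM from each list, and uncalled regulators. Some genes that the rule names are not reported here. Other genes named were chosen after their values were seen. The comparison and the 34 gene lists were chosen with earlier results of these data known. The mitochondrially encoded list had 2 entries and was not used. Gene positions and start windows come from RefSeq (GRCh38.p14). Alternatives were DESeq2 1.42.0, other scalings, filters and thresholds, pooled control sets, only the 8 libraries, a replicate block and leaving out each library; leaving out both libraries numbered 4 was added after seeing the data.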

Additional observations from a re-analysis of the deposited data

Results flagged for a closer look

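In 13 of 233 groups of 4 libraries examined, 1 library stood apart from the other 3 by Dixon's criterion, where chance gives about 1 in 20 groups (11.65). Among the largest changes these were ITIH2 in knockout library 1 (98.0 CPM), MYBPC1 in control library 2 (3.698 CPM), GSTM2 in knockout library 2 (17.35 CPM), PTPRN2 in control library 2 (11.46 CPM), IQGAP1 in control library 1 (300.4 CPM) and HOOK1 in knockout library 3 (4.118 CPM). In parkin's pathway it was PINK1 in knockout library 3 (11.2 CPM). In other lists they were MRPL16 (85.41 CPM), ATP5G3 (193.1 CPM) and SCD5 (16.9 CPM) in knockout library 1, MT1E in control library 3 (91.54 CPM), and EPHA7 (0.7265 CPM) and STXBP2 (4.964 CPM) in knockout library 4.

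The effects of the PARK2 and SLC30A10 knockouts, each against its own control, differed by edgeR's test of the difference for 4873 genes.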

How the results depend on the processing

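The count of 2132 changed genes lay between 1570 (without knockout library 2) and 2146 when single libraries were left out, with 761 to 1074 higher and 780 to 1099 lower. It was 1976 with DESeq2, 2135 with median-of-ratios size factors, 2088 with library totals alone, 1758 at a mean count of at least 50, 2409 without a filter, 1723 from the 8 libraries alone, 2958 with both control sets pooled and 1509 without both libraries numbered 4. An adjusted p under 0.01 left 1229 genes (577 higher, 652 lower), and a change of at least 2-fold 358 (149 higher, 209 lower), by construction. The difference between the knockout effects at an adjusted p under 0.01 was called for 3292 genes. No named gene with a call was called in the opposite direction under any alternative run. A sign could still change without a call, as that of DKK3 did with the control sets pooled. Of the 117 named genes with a call, 48 kept it under every alternative that gave a value, and the 2-fold threshold took 69.

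The difference in PARK2 level on the log2(CPM + 0.1) scale ran from -1.97 to -1.45 when single libraries were left out. Its exact permutation p was then 0.0286 to 0.0571, the higher value without control library 1, 2 or 4. On the log2(CPM + 1) scale it was -0.725.

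The labels number the libraries of each group 1 to 4, but same-numbered libraries did not deviate together (correlations 0.1751, 0.0819, 0.0679 and -0.0497), so the numbers were not taken as pairs. With a replicate block the PARK2 difference was -1.71 with an exact permutation p of 0.125, the smallest 4 pairs allow, and 2160 genes were called, with AGPAT4 and XBP1 lost among the named genes. Low counts limit PARK2 itself (20 counts in the 4 knockout libraries).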

Other observations

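The genes in this paragraph were chosen after their values were seen. PTGIS, prostacyclin synthase, had a mean of 0.137 CPM in control and 7.63 CPM in knockout (log2 fold change 5.73). NDNF, which encodes a secreted protein, went from 73 counts in the 4 controls to 1 in the 4 knockouts, a ratio of 72.4 with an exact 95% interval of 12.6 to 2899 that covers counting error only. EGFR, the receptor of epidermal growth factor, BMP7, a bone morphogenetic protein, and MECOM, a transcription factor of blood stem cells, fell as well, by 2.08, 2.31 and 1.93 on the log2 scale.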
